A study of Mus musculus with 4 samples.

Results

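Periventricular heterotopia is a brain malformation in which neurons that should have reached the cortex lie in nodules beside the ventricle. The 6 genes described here, Flna, Arfgef2, Dchs1, Fat4, Nedd4l and Eml1, are genes whose loss or mutation displaces neurons or progenitors in this region in patients or in mice. They were chosen by name, not by a threshold on their levels, and are 6 of the 45706 Ensembl genes of the count table. RNA was measured in 4 replicate libraries of medial basal radial glial cells from mouse embryos at E18.5, strain C57BL/6JOlaHsd and genotype Tubb-GFP/+, with DiI, a lipophilic membrane dye, in the sample titles. All 4 libraries form a single group, so no conditions were compared, and the comparisons are between genes and against fixed levels. No label ties the libraries to separate animals, so a p-value here reflects how far the 4 libraries scatter, and that scatter may be technical in part or in whole.

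The ventricular surface of the embryonic cortex is lined by the end feet of apical radial glia, which are held together by adherens junctions, and newborn neurons leave it along radial fibres. Basal radial glia are progenitors that have left the surface while keeping a basal process. The 6 genes act at different points of this arrangement. Filamin A (Flna) crosslinks actin filaments and ties them to membrane receptors. BIG2 (Arfgef2) switches on ARF GTPases in vesicle traffic from the trans-Golgi network. DCHS1 and FAT4 are giant cadherins that bind one another between neighbouring cells, with DCHS1 as ligand and FAT4 as receptor. NEDD4L is a HECT-type ubiquitin ligase, and EML1 is a microtubule-binding protein whose loss in the HeCo mouse leaves progenitors outside the ventricular zone.

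Library totals ran from 26540656 to 34837657 counts, and the 6 genes took between 0.0465% and 0.0506% of them. Pairs of libraries differed beyond counting noise, with a chi-square per gene of 9.83 to 13.9 among replicates 1 to 3 and of 20.1 to 26.4 for pairs with replicate 4. Of 12 radial glia markers, all were above 1 TPM (counts scaled by exon length, then by the library's sum of these scaled counts). So were all 8 intermediate progenitor and all 10 neuron markers. Of the markers of other cells, 6 of 10 were above 1 TPM for microglia, 6 of 7 for erythroid cells (Hbb-y was at 0) and 1 of 7 for ependyma (Tmem212 was at 0). For comparison, 65.9% of all 20991 genes tested were above 1 TPM, and 75.7% of the 15401 protein-coding genes. The radial glia markers summed to 5529 to 6704 TPM, of which Fabp7 made up 4155 to 5084 TPM, and the neuron markers to 9698 to 10802 TPM, of which Tubb3 made up 6263 to 7221 TPM. Markers of both kinds of cell were thus present, and the libraries do not say which cells held a transcript. In such bulk RNA, fewer cells of a type and less RNA per cell cannot be told apart.

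All 6 heterotopia genes were above 1 TPM by edgeR's quasi-likelihood test, where 75.7% of the 15401 protein-coding genes tested were (65.9% of all 20991 genes). Against the level of the median protein-coding gene, 9.0 TPM, 4 genes were above (Nedd4l, Flna, Dchs1 and Eml1) and 2 below (Fat4 and Arfgef2). Among all protein-coding genes tested, 47.1% were called above that level and 46.5% below it, and among all genes tested 36.8% and 55.9%. These counts depended on the length by which counts were scaled. Above the median gene were 3 genes with coding exons, 3 with the whole gene span and 5 with no length. Over all genes tested, 7259 of 15401 were above it with coding exons (protein-coding genes only). With the span these were 8628 of 20991, and with no length 7417 of 20991. With coding exons and with the span, 5 genes instead of 6 were above 1 TPM. Over all genes tested these were 11374 of 15401 and 12620 of 20991. The median of the 6 genes was 16.5 TPM. Each gene had between 674 and 29545 counts over the 4 libraries, and all 6 passed the minimum of 10.

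**Figure D1:**
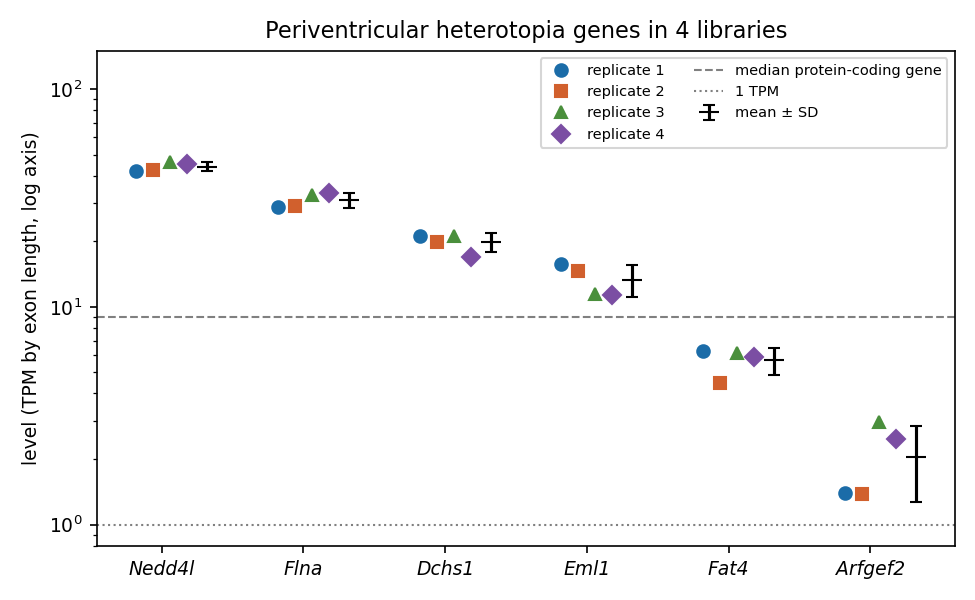
Level of each gene in TPM by exon length (log axis) in replicates 1 to 4 (symbols) with the mean and SD over the 4 libraries (black). The dashed line is the median protein-coding gene at 9.0 TPM and the dotted line is 1 TPM; the genes run from Nedd4l at 44.1 TPM to Arfgef2 at 2.05 TPM, and within each library no 2 genes change places.

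Filamin A was the second most abundant of the 6. Flna (ENSMUSG00000031328) lies on the minus strand of GRCm38 chromosome X at 74223461 to 74249820. It was at 28.6, 29.0, 32.7 and 33.5 TPM in replicates 1 to 4 (counts of 2405, 3065, 2952 and 2594). Replicates 3 and 4 were higher than replicates 1 and 2, by at most 1.17-fold. The mean was 30.9 ± 2.52 TPM (SD, n = 4), at percentile 73.5 of the protein-coding genes, and above the median gene by a log2 difference of 1.78 ± 0.059 (SE; adjusted p = 1.16e-10, edgeR). No other gene's exons overlap those of Flna on either strand.

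Filamins are also abundant in vessels and connective tissue. Of 10 endothelial markers 2 were above 1 TPM and 6 below, and their summed level was 7.32, 6.74, 5.39 and 4.65 TPM in replicates 1 to 4. Of 7 mural markers 3 were above and 2 below (summed level 11.7 to 15.8 TPM), and of 10 meningeal markers 2 were above and 4 below (summed level 7.28 to 9.54 TPM). No marker of these lists was at 0 in all libraries. Over all protein-coding genes tested, 75.7% were above 1 TPM and 11.5% below it. Endothelial markers were highest in replicate 1, where Flna was lowest, while mural and meningeal markers were, like Flna, lowest in replicate 1. Their part in the Flna level was not tested.

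Flna was far above Flnc, the muscle filamin, which was at 1.38 ± 0.230 TPM (SD, n = 4). Flna exceeded Flnc by 3.75 ± 0.21 on the log2(TPM + 1) scale (SD, n = 4), more than the spread between libraries, and was the higher in each library. The two-sided exact permutation of signs over libraries gave p = 0.13 (adjusted 0.13 over the pairs with relatives), the smallest p that 4 libraries allow, and the same p holds for every pair of genes below that has one sign throughout. Flnc was below the median gene (log2 difference -2.71, edgeR adjusted p = 4.01e-07). Of the 10 genes in the list of filamin relatives and partners, all were above 1 TPM, with 3 above and 6 below the median gene and a list median of 3.29 TPM. Over all protein-coding genes tested, 75.7% were above 1 TPM, 47.1% above the median gene and 46.5% below it. The integrin subunit Itgb1, whose cytoplasmic tail binds filamin, was at 65.5 ± 5.44 TPM. The actin crosslinkers Actn4 and Actn1, both alpha-actinins, were at 40.1 ± 7.81 and 13.1 ± 1.56 TPM.

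Arfgef2 was the least abundant and the most variable of the 6. It lies on the plus strand of GRCm38 chromosome 2 at 166805588 to 166898052 (ENSMUSG00000074582). Its level was 1.40, 1.39, 2.94 and 2.48 TPM in replicates 1 to 4, from counts of 110, 137, 248 and 179. Replicates 3 and 4 thus stood apart from replicates 1 and 2, and the highest was 2.12-fold the lowest. The mean was 2.05 ± 0.783 TPM (SD, n = 4), at percentile 27.7, with exact Poisson 95% intervals of single libraries spanning 1.15 to 3.33 TPM (counting error only, since amplified reads are not independent molecules). It lay above 1 TPM by 1.04 ± 0.20 (log2, SE; edgeR adjusted p = 0.000405) and below the median gene with a log2 difference of -2.13 ± 0.20 (edgeR adjusted p = 1.69e-05). The call above 1 TPM was lost with coding exons as length (log2 level 0.071, edgeR adjusted p = 0.725) and turned to below 1 TPM with the whole gene span (-1.11, edgeR adjusted p = 0.000775).

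Both relatives of Arfgef2 were more abundant. Arfgef1, which encodes BIG1, the closest relative of BIG2, was at 6.05 ± 0.907 TPM and Arfgef3, a further member of the family, at 7.55 ± 1.36 TPM (SD, n = 4). Arfgef2 minus Arfgef1 was -1.23 ± 0.41 and Arfgef2 minus Arfgef3 -1.51 ± 0.32 (log2(TPM + 1), SD, n = 4), negative in all 4 libraries. Of the 11 genes of the exchange factor and ARF GTPase families in the list, all were above 1 TPM, with a list median of 25.5 TPM. Against the median gene 8 were above and 3 below (Arfgef1, Arfgef3 and the exchange factor gene Cyth3). The shares of all protein-coding genes tested were 75.7% above 1 TPM, and 47.1% above and 46.5% below the median gene. The GTPase genes Arf1, Arf4 and Arf6 led the list, at 805 ± 26.3, 531 ± 42.0 and 109 ± 4.30 TPM. Arf4 is uncertain because 17.7% of its exonic bases lie opposite another gene, and for Arf6 this share is 13.6%.

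**Figure D2:**
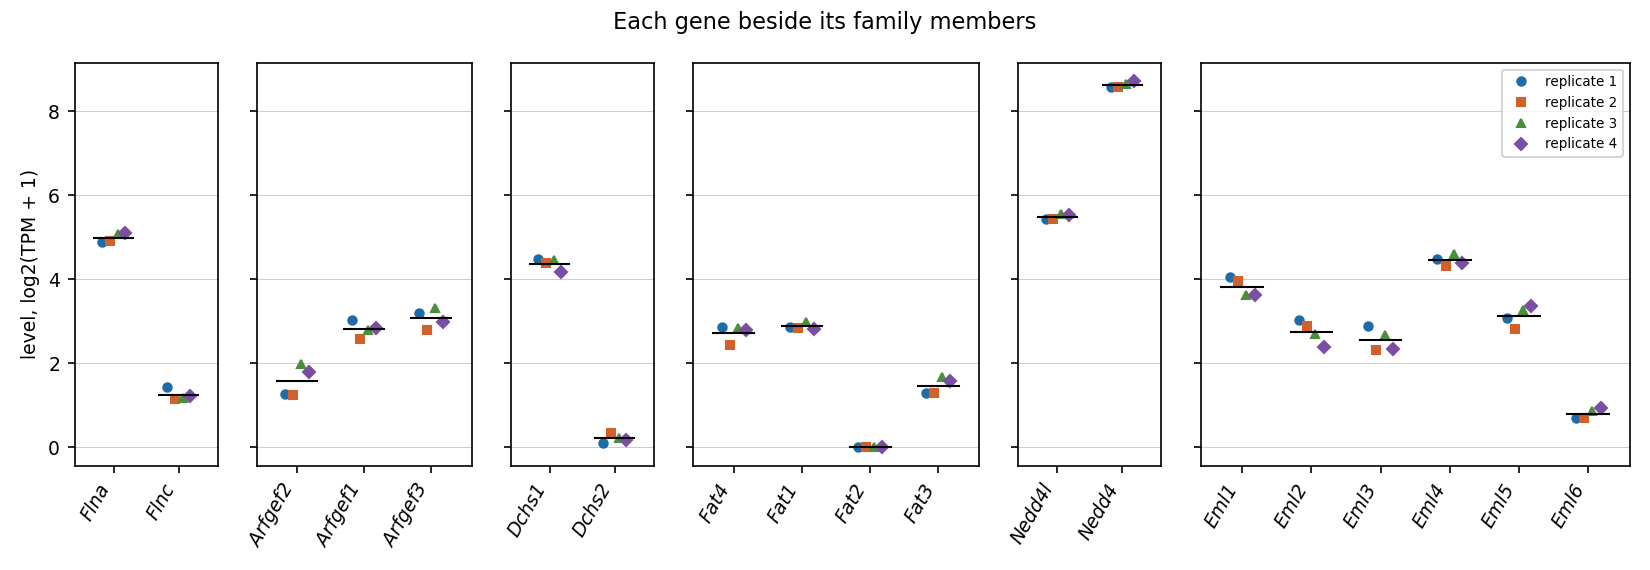
Level of each of the 6 genes and of the family members reported as log2(TPM + 1), in replicates 1 to 4 (symbols) with the mean (line), 1 panel per family. Flna and Dchs1 stand above the relatives shown, and Arfgef2 below Arfgef1 and Arfgef3. Nedd4l stands below Nedd4, its only relative shown, and Fat4 and Eml1 stand within their families.

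The ligand gene of the cadherin pair was more abundant than the receptor gene. Dchs1 (ENSMUSG00000036862; GRCm38 chromosome 7, minus strand, 105752990 to 105787654) was at 21.2, 19.95, 21.04 and 17.0 TPM in replicates 1 to 4. Replicate 4 was the lowest and the other 3 lay close together. Fat4 (ENSMUSG00000046743; GRCm38 chromosome 3, plus strand, 38886940 to 39011985) was at 6.24, 4.46, 6.13 and 5.88 TPM, with replicate 2 the lowest. The counts were 2100, 2482, 2234 and 1544 for Dchs1 and 958, 861, 1011 and 832 for Fat4.

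Dchs1 averaged 19.8 ± 1.97 TPM at percentile 65.2, and Fat4 5.68 ± 0.827 TPM at percentile 41.8 (SD, n = 4). Dchs1 was above the median gene by 1.14 ± 0.067 (log2, SE; edgeR adjusted p = 3.34e-08), and Fat4 below it with a log2 difference of -0.67 ± 0.091 (edgeR adjusted p = 0.000125). Dchs1 exceeded Fat4 by 1.64 ± 0.23 on the log2(TPM + 1) scale (SD, n = 4), from 1.38 to 1.94 over the 4 libraries. This difference kept its sign under every length scale tried, but the calls against the median gene did not: Dchs1 was below it with coding exons (-0.30, edgeR adjusted p = 0.00137), and Fat4 was above it with counts scaled to the library total alone, or CPM (1.09, edgeR adjusted p = 6.25e-07). Whether reads were assigned by strand is not known, so antisense reads cannot be told apart: 5.86% of the exonic bases of Dchs1 and 8.68% of those of Fat4 lie opposite another gene.

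Dchs2, the other dachsous gene, had 69 counts in all and was at 0.161 ± 0.076 TPM (SD, n = 4), below 1 TPM by the test (-2.62 ± 0.37, log2, SE; edgeR adjusted p = 0.000359). Of the exonic bases of Dchs2, 12.05% lie opposite another gene, so antisense reads may be part of its level. Dchs1 exceeded Dchs2 by 4.16 ± 0.17 on the log2(TPM + 1) scale (SD, n = 4) in all 4 libraries. The fat family was less uneven. Fat1, a widely expressed relative, was at 6.37 ± 0.371 TPM, and Fat4 minus Fat1 was -0.15 ± 0.18 (SD, n = 4), negative in all 4 libraries but within the spread between them. Fat3, which is known from retinal and other neurons, was at 1.77 ± 0.371 TPM, below Fat4 by 1.27 ± 0.20 (Fat4 minus Fat3, SD, n = 4). Fat2, a gene of cerebellar granule cells, had no count in any library. At 3 counts per library this allows up to 0.0251 TPM, and Fat4 was at least 235-fold higher in each library.

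Of the 10 genes in the FAT and dachsous pathway list, 8 were above and 1 below 1 TPM, and Fat2 was not tested. Of the 9 tested, 3 were above the median gene and 5 below it, namely Dchs2, Fat1, Fat3 and the Hippo pathway coactivators Yap1 and Wwtr1. The list median was 6.20 TPM. Over all protein-coding genes tested, 75.7% were above 1 TPM and 11.5% below it, and 47.1% were above and 46.5% below the median gene. Lix1 and Lix1l, relatives of Drosophila lowfat, which binds Fat and Dachsous in the fly, were at 41.9 ± 2.27 and 20.7 ± 2.01 TPM. Vangl2, a core gene of planar cell polarity, was at 25.8 ± 1.80 TPM (SD, n = 4).

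Nedd4l was the most abundant by exon length and the least variable of the 6. It lies on the plus strand of GRCm38 chromosome 18 at 64887705 to 65217828 (ENSMUSG00000024589). Its level was 42.2, 42.5, 46.2 and 45.4 TPM in replicates 1 to 4, from counts of 6669, 8439, 7830 and 6607. The 4 libraries lay within 1.09-fold of each other. The mean was 44.1 ± 2.02 TPM (SD, n = 4), at percentile 79.2, and above the median gene by 2.29 ± 0.044 (log2, SE; edgeR adjusted p = 6.10e-13). The annotation lists 34 transcripts for Nedd4l. Their merged exons of 17659 bases are longer than its longest transcript of 7787 bases, with which the mean was 75.6 TPM. With the whole gene span as length the mean was 5.63 TPM, behind Flna and Dchs1.

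The founding family member was far above it. Nedd4, the ubiquitin ligase after which the family is named, was at 396 ± 17.99 TPM (SD, n = 4), at percentile 97.6 of the protein-coding genes. Nedd4l minus Nedd4 was -3.14 ± 0.038 (log2(TPM + 1), SD, n = 4), negative in all 4 libraries. Of 11 genes in the list of NEDD4-type ligases, their adaptors and the kinase Sgk1, 10 were above 1 TPM and Hecw2 was not called. Against the median gene, 7 were above and Wwp1, Ndfip2 and Hecw2 below, with a list median of 18.47 TPM. The shares of all protein-coding genes tested were 75.7% above 1 TPM, and 47.1% above and 46.5% below the median gene. Wwp2, another ligase of the family, was at 45.2 ± 0.577 TPM and Sgk1, whose product phosphorylates NEDD4L in kidney cells, at 40.9 ± 4.45 TPM.

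Eml1 lay between Dchs1 and Fat4. It is on the plus strand of GRCm38 chromosome 12 at 108370957 to 108539617 (ENSMUSG00000058070). Its level was 15.7, 14.6, 11.5 and 11.3 TPM in replicates 1 to 4, from counts of 1045, 1225, 819 and 692. Replicates 1 and 2 were higher than replicates 3 and 4, the opposite of Arfgef2. The mean was 13.3 ± 2.23 TPM (SD, n = 4), at percentile 57.5, and 0.56 ± 0.095 above the median gene (log2, SE; edgeR adjusted p = 0.000226). With the whole gene span as length it fell below the median gene, at -1.34 (edgeR adjusted p = 1.15e-06). Of its exonic bases, 4.29% lie opposite another gene.

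Eml4 was the only EML gene above Eml1, at 20.97 ± 1.91 TPM (SD, n = 4). Eml1 minus Eml4 was -0.63 ± 0.29 on the log2(TPM + 1) scale. Eml5, Eml2 and Eml3 were at 7.88 ± 1.42, 5.83 ± 1.27 and 4.99 ± 1.16 TPM, and Eml6 at 0.742 ± 0.142 TPM. Eml1 exceeded them by 0.69 ± 0.44, 1.07 ± 0.12, 1.26 ± 0.28 and 3.03 ± 0.34 in that order (SD, n = 4). Each of the 5 differences had one sign in all 4 libraries. Eml5 and Eml6 share 10.4% and 13.8% of their exonic bases with genes on the other strand. EML proteins bind microtubules or tubulin. Of the 5 relatives of Eml1, 4 were above 1 TPM and 1, Eml6, was not called (edgeR adjusted p = 0.0673). Against the median gene 1 was above and 3 below, with a list median of 5.83 TPM. Over all protein-coding genes tested, 75.7% were above 1 TPM, 47.1% above the median gene and 46.5% below it. Scaled by the longest transcript, Eml1 minus Eml4 was 0.014, and scaled by the gene span Eml1 was the lower against Eml2, Eml3 and Eml5 (-0.13, -1.07 and -0.31).

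Placed side by side, the 6 genes, scaled by exon length, held a single order in every library: Nedd4l, Flna, Dchs1, Eml1, Fat4 and Arfgef2. In each of the 15 pairs 1 gene was the higher in all 4 libraries, with a mean difference above its SD. Among all 118587700 pairs of protein-coding genes tested, one gene was the higher in all 4 libraries for 91.4%, and for 91.1% the mean difference also exceeded its SD, so a fixed order is usual in these libraries. Neighbours in the order differed by 0.50 ± 0.054 (Nedd4l over Flna), 0.62 ± 0.23 (Flna over Dchs1), 0.55 ± 0.19 (Dchs1 over Eml1), 1.09 ± 0.34 (Eml1 over Fat4) and 1.16 ± 0.32 (Fat4 over Arfgef2) on the log2(TPM + 1) scale (SD, n = 4). The exact sign-flip permutation p was 0.13 for each of the 15 pairs (adjusted 0.13). Nedd4l over Flna turned to -2.04 and Nedd4l over Dchs1 to -1.27 with the gene span, which changed the top of the order. Dchs1 over Eml1 turned to -0.20 with the longest transcript and to -0.75 with coding exons, Flna over Eml1 to -0.096 with coding exons, and Eml1 over Fat4 to -0.25 with the gene span. Of the 14 pairs of a heterotopia gene and a relative, the heterotopia gene was higher in 9 and lower in 5, and 13 differences exceeded their SD.

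The genes nearest in level, by the root-mean-square distance of log2(TPM + 1) over 4 libraries, were Mapk10 (0.027) and Ftsj1 (0.029) for Nedd4l, and Larp4 (0.027) and Rai14 (0.034) for Flna. For Dchs1 they were Amdhd2 (0.030) and Hyou1 (0.047), and for Eml1 Rbfox3 (0.048) and Wdr91 (0.064). Arfgef2 lay nearest to Pigw (0.063) and Pcdhb10 (0.080), and Phf2 (0.066) was one of the pair nearest to Fat4. This measure reads the level itself and, with 4 libraries of a single group, says nothing of shared regulation.

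The spread between libraries differed among the 6 genes. The SD was 38.2% of the mean for Arfgef2, against 8.06% from counting error alone, and 4.59% for Nedd4l, against 1.17%. Beside protein-coding genes with total counts within 2-fold, the spread of Arfgef2 was at percentile 94.6 and that of Nedd4l at percentile 28.1. Eml1 (16.8%) and Fat4 (14.6%) were at percentiles 85.4 and 74.6, Dchs1 (9.98%) at 64.5 and Flna (8.14%) at 53.2. Microglial markers were also uneven, with a summed level of 20.2 TPM in replicate 4 against 35.97 to 53.3 TPM in the others, and erythroid markers reached 4203 TPM in replicate 2 against 2377 to 2683 TPM elsewhere. Their part in the spread of the 6 genes was not tested.

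**Figure D3:**
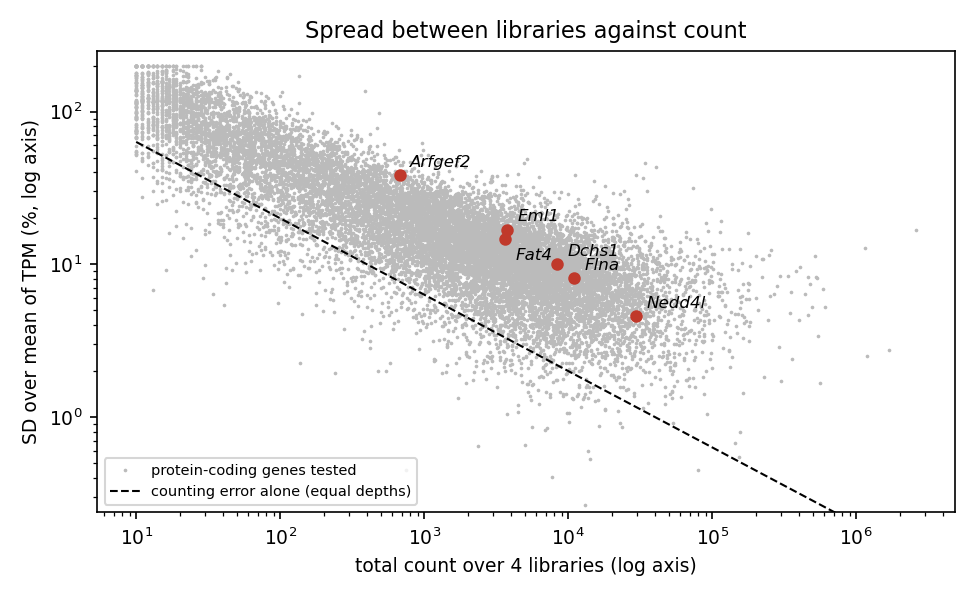
SD over mean of TPM across the 4 libraries (percent, log axis) against the total count over the libraries (log axis) for protein-coding genes (grey) and the 6 heterotopia genes (red). The dashed line is the spread that counting error alone gives at equal depths. Arfgef2, at 38.2%, lies high among the grey points near its count (percentile 94.6), and Nedd4l, at 4.59%, lies well within them.

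The 6 genes are long, and their order depended on the length by which the counts were scaled. Their coding sequence ran from 2493 bases (Eml1, percentile 78.4 of the protein-coding genes tested) to 14943 bases (Fat4, percentile 99.8), against a median of 1435 bases. Nedd4l and Eml1 span 330124 and 168661 bases of the genome, 18.7 and 22.7 times their exons, while Flna and Dchs1 span 26360 and 34665 bases, 2.80 and 3.14 times theirs. In the authors' deposited TPM the values followed the whole gene span. In replicate 1, the ratio of count to TPM was within 0.01 (log2) of a constant times the span for 95.3% of 7984 genes. These were genes of high total count with a deposited TPM above 1 in all 4 libraries. On that deposited scale Flna was first at 38.7 ± 3.16 TPM and Dchs1 second at 22.2 ± 2.22 TPM (SD, n = 4). Nedd4l followed at 8.28 ± 0.385 TPM, Fat4 at 2.74 ± 0.396 TPM, Eml1 at 2.06 ± 0.344 TPM and Arfgef2 at 0.684 ± 0.261 TPM.

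**Figure D4:**
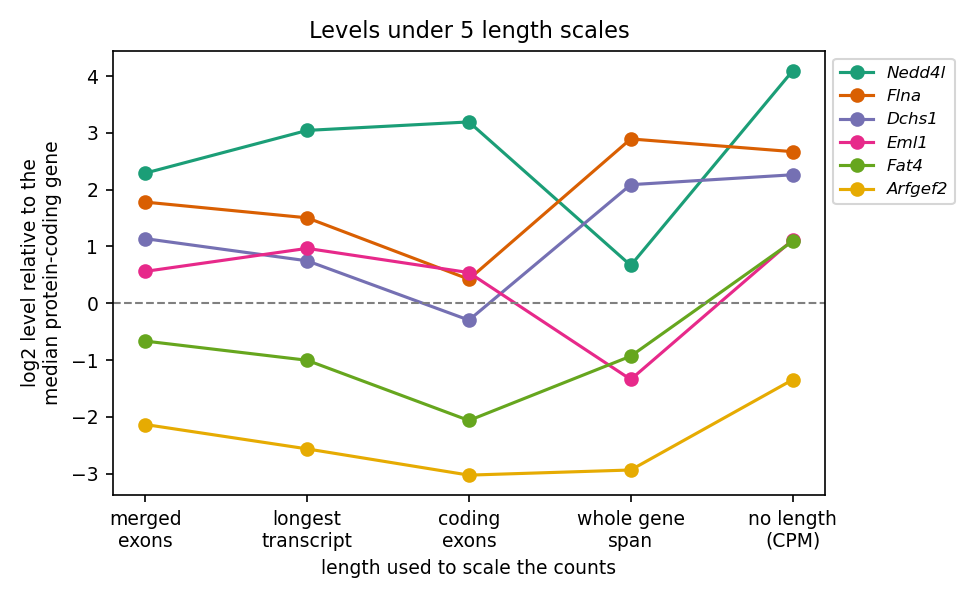
Log2 level of each gene relative to the median protein-coding gene (dashed line) when counts are scaled by merged exons, by the longest transcript, by coding exons, by the whole gene span or not at all (CPM). Nedd4l is highest on 4 of the scales and behind Flna and Dchs1 by gene span, Arfgef2 is lowest on all 5, and Eml1 runs from 1.11 by CPM to -1.34 by gene span.

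Of 9 further genes linked to heterotopia in patients or in mouse mutants, all were above 1 TPM, with 5 above and 2 below the median gene and a median of 23.1 TPM. The shares of all protein-coding genes tested were 75.7% above 1 TPM, and 47.1% above and 46.5% below the median gene. Map1b, a microtubule-associated protein gene, was at 558 ± 46.7 TPM. Napa, which encodes alpha-SNAP and is mutated in the hyh mouse, was at 312 ± 7.71 TPM. The GTPase gene Rhoa, whose loss in the mouse cortex disrupts radial glial fibres, was at 70.4 ± 1.82 TPM (SD, n = 4). By exon length, all 3 were more abundant than any of the 6 genes in every library. By raw counts Rhoa was below Nedd4l in every library (4278 to 6041 against 6607 to 8439). Afdn and Llgl1, which act at cell junctions and in cell polarity, were the other two above the median gene, at 23.1 ± 0.925 and 41.9 ± 6.09 TPM. Rapgef2 (2.47 ± 0.590 TPM) and Mcph1 (3.43 ± 0.530 TPM) were the 2 called below the median gene. Afdn, Llgl1, Rapgef2, Mcph1, Cyth3, Yap1, Wwtr1, Hecw2, Wwp1, Ndfip2, Itch, Hecw1, Smurf1 and Smurf2 were named after their values were seen.

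**Figure D5:**
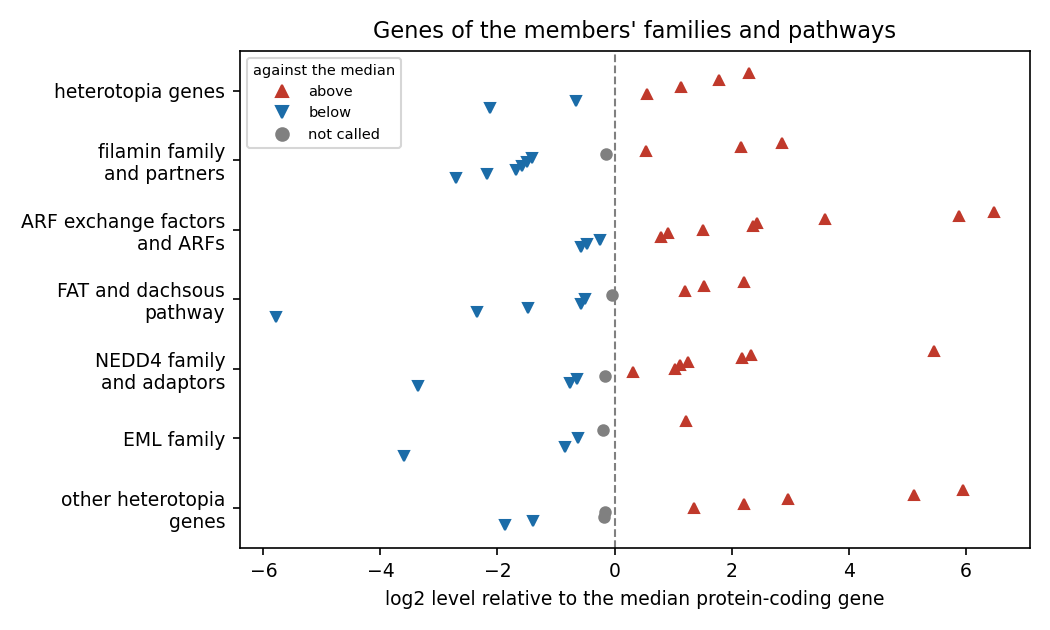
Log2 level relative to the median protein-coding gene (dashed line) of each gene tested in the heterotopia set and in 6 lists of relatives, pathway partners and other heterotopia genes. Triangles mark genes called above (red) or below (blue) the median by edgeR and grey circles genes not called. Above the median are 4 of the 6 heterotopia genes and 8 of the 11 genes of the ARF exchange factor and ARF families. Of the 5 other EML genes, 1 is above. Of all protein-coding genes tested, 47.1% are above and 46.5% below.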

How the data were processed

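RNA from 4 libraries of a single group was analysed. Per the labels' protocols, cDNA was primed on poly-A tails, extended by template switching, amplified and sheared before library preparation. Coverage along long transcripts was not measured here. The submitters' processing notes name bcl2fastq 2.19.1, STAR 2.5.2b and GRCm38, while the counter, strand setting and annotation release were not given in the sources used here. Whole read counts per Ensembl gene, not normalised, were deposited. A deposited TPM table holds 15648 genes, and its length basis was tested from the values.

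TPM was recomputed from the counts with merged exon lengths of GENCODE M21 (GRCm38), in which 45143 of 45706 identifiers matched; the other 563 held 0.120% to 0.125% of counts. Genes with at least 10 counts in total were tested against 1 TPM, and against the median protein-coding TPM taken as fixed, by an intercept-only quasi-likelihood fit with edgeR 4.0.16 under R 4.3.3. The two-sided p-values were Benjamini-Hochberg adjusted over all genes at a threshold of 0.05. The F statistic was built from the null deviance, since the packaged function needs 2 coefficients. Pairs of genes were compared with exact two-sided sign-flip permutation tests, adjusted within the 15 pairs of the 6 genes and the 14 pairs with relatives. The scripts were tested on simulated data. Figures used matplotlib 3.10.9.

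Alternatives were other lengths, TMM, DESeq2 1.42.0 size factors and Wald test, no filter, other pseudocounts and each library left out. The genes named are the 6, their relatives, the 3 most abundant of each list called above 1 TPM and any called below it, and the 2 nearest genes in level; 2 of these are not reported here. The genes and lists were chosen with earlier results of these data known. No 2 libraries agreed within counting noise, so none was merged. The labels give no batch.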

Additional observations from a re-analysis of the deposited data

How the results depend on the processing

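Over 45 results and 14 alternative settings, 524 of 539 recomputed values kept their direction and their side of the threshold or, for counts, stayed within 1.5 times. All 15 others came from the length used to scale the counts. Many of the values that kept their direction were signs of pairs that could not have changed, as given below. Of the counts, genes above 1 TPM were 5 in place of 6 with coding exons and with the span, and genes above the median gene were 3, 3 and 5 in place of 4 with coding exons, span and no length. Pairs of the 6 genes with one sign were 14 in place of 15 on each of the other 4 lengths, and pairs with relatives 13, 12, 11 and 12 in place of 14 with the longest transcript, coding exons, span and no length. With the longest transcript, Dchs1 over Eml1 was -0.20 and Eml1 over Eml4 0.014 (log2(TPM + 1)). With coding exons, Dchs1 lay at -0.30 against the median gene, Flna over Eml1 was -0.096 and Dchs1 over Eml1 -0.75, and Arfgef2 was no longer called above 1 TPM. With the whole gene span, Arfgef2 lay at -1.11 against 1 TPM and Eml1 at -1.34 against the median gene, Nedd4l over Flna was -2.04, Nedd4l over Dchs1 -1.27, Eml1 over Fat4 -0.25, Eml1 over Eml2 -0.13, Eml1 over Eml3 -1.07 and Eml1 over Eml5 -0.31. With no length, Fat4 lay at 1.09 against the median gene. These follow from the lengths themselves, since the counts are the same. TMM, DESeq2 size factors, DESeq2's Wald test, no filter, a pseudocount of 0.1 or none, and leaving out each library changed no direction and no call among the values recomputed under them. The pairs were not recomputed with the Wald test or without the filter, which they do not use, and the pair with Fat2 has no value without a pseudocount. Over all genes, 13828 lay above and 2532 below 1 TPM, against 12620 and 5141 by gene span. With no length, where the level tested was 1 CPM, 13057 lay above and 4929 below. With no filter 13837 lay above and 6564 below 1 TPM, and without single libraries 1525 to 1707 lay below it. Above the median gene were 7716 of 20991 genes, against 8628 by gene span, 7417 with no length and 7259 of 15401 with coding exons. Fat4 over Fat1, -0.15, was -0.066 without replicate 2. Libraries could not be paired between conditions because they form 1 group, while genes were compared in pairs within each library. Among the relatives, Fat2 had no count and the next lowest depth lies behind Dchs2, with 69 counts, and Eml6, with 259.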
